A study of Mus musculus with 6 samples.

Results

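The genes of the mitochondrial ribosome were examined in inguinal white adipose tissue, the subcutaneous fat of the groin, of old mice after 7 days of cold. Members were all protein-coding genes whose symbol begins with Mrps or Mrpl followed by a digit, 78 of the 54532 genes in the deposited table and of its 22046 protein-coding genes. By symbol, 29 belonged to the small subunit and 49 to the large subunit. The series set 3 libraries of total RNA from mice given vehicle against 3 from mice given estrogen, all after the same cold exposure, to examine estrogen and the beige adipocytes of this fat pad at old age. The sources used here do not state strain, genotype, sex, age in numbers, dose or route, and the series as used here holds no library from mice kept warm or from young mice. Whether the 3 libraries of a group stem from different animals is not stated, so the p-values reflect only the scatter of these libraries, part of which may be technical.

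The mitochondrial ribosome is a separate ribosome inside the mitochondrion that translates the few messenger RNAs of the mitochondrial chromosome, all of which encode subunits of the respiratory chain or the ATP synthase. Its small subunit holds the messenger RNA and decodes it, and its large subunit joins the amino acids and feeds the growing chain into the inner membrane. The ribosomal RNAs come from the mitochondrial chromosome, whereas every protein of the particle is encoded in the nucleus, made in the cytosol and imported. Beige adipocytes of subcutaneous fat acquire many mitochondria and Ucp1, the uncoupling protein of thermogenic fat, when mice are kept in the cold.

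Members with a RefSeq promoter entry numbered 69, and the windows ran from 250 bases before to 50 bases after the start site on GRCm38.p6, the assembly behind the mm10 build of the counts. Stretches free of annotated exons are shown for a small subunit gene and 2 large subunit genes whose estrogen libraries all read above vehicle, and for Mrpl52, the only member whose estrogen libraries all read below vehicle. They run 5′ to 3′ on the gene's strand, and capitals mark motif letters searched for on both strands. These were ACTACA and TCCCA with any 2 bases between them (ZNF143), CCGGAAG (GABPA, also called NRF2) and GCGC and TGCGC with any 1 base between them (NRF1).
Mrps22 (chr9:98601680-98601929, minus strand; ZNF143 and GABPA letters): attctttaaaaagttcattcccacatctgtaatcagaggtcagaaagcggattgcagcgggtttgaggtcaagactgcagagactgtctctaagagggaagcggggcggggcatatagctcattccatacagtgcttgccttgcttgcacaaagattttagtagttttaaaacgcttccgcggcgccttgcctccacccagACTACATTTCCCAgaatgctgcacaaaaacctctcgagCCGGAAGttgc
Mrpl42 (chr10:95501950-95502199, minus strand; ZNF143 letters): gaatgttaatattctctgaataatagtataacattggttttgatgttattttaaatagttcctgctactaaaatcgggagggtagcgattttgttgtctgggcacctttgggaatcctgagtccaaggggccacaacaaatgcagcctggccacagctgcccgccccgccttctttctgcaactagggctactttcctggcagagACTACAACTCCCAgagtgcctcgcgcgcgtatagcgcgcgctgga
Mrpl12 (chr11:120484387-120484612, plus strand; NRF1 letters): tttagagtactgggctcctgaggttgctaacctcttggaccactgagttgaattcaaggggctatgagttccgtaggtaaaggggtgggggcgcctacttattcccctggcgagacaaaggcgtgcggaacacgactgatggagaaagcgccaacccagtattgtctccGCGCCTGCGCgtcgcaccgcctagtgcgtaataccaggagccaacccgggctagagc
Mrpl52 (chr14:54426659-54426908, plus strand; GABPA letters): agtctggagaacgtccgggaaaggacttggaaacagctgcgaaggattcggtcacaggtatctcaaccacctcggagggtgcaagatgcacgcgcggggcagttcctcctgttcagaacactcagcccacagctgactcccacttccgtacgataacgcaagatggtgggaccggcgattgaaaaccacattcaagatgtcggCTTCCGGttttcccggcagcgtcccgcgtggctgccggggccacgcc
Mrps11 and Mrpl46 gap (chr7:78783090-78783118, plus strand; none of these letters): ccatgaggcaacgcgggccggcgaggggc
The last line is a stretch between exons of Mrps11 and Mrpl46, a small and a large subunit gene that point away from each other. It is a gap in annotated exons only. In the deposited coordinates the 2 genes overlap by 413 bases, and the stretch lies inside the extent of Mrpl46. The GABPA letters were in 26 of the 69 member windows (37.7%), against 18.8% of the 11161 matched tested genes and 9.93% of all 27025 windows in the table. The NRF1 letters were in 13 (18.8%, against 10.7% of tested genes and 5.19% of all windows), and the letters AAGATGGCG of YY1 in 8 (11.6%, against 3.28% and 1.64%). The ZNF143 letters were in 5 (7.25%, against 3.63% and 1.69%), namely Mrpl24, Mrpl34, Mrpl42, Mrpl50 and Mrps22. The letters TCAAGGTCA of ESRRA and AGGTCA and TGACC with any 3 bases between them, of the estrogen response element, were in 0 of the 69 member windows, against 0.314% and 0% of tested genes. The exon-free stretch of Mrpl2, whose estrogen libraries also all read above vehicle, held none of the searched letters and is not shown. Median log2 fold changes of tested members with and without the letters were 0.26 and 0.31 (GABPA) and 0.19 and 0.29 (YY1). They were 0.33 and 0.28 for NRF1 and 0.43 and 0.28 for ZNF143. A relation of letters to the difference between groups was not tested. A match of letters is a description of the window and not a bound site.

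Most mitochondrial ribosomal protein genes had higher fitted levels with estrogen, by about the same modest factor in both subunits, and none passed the adjusted threshold. Counts were scaled to a common library total (CPM) with TMM factors and compared by edgeR's quasi-likelihood test over 15591 genes, of which 0 (0%) passed an adjusted p of 0.05. Of the 77 members with enough counts to be tested, 70 had a positive log2 fold change, estrogen over vehicle, where 50.3% of all tested genes did. The members' median was 0.28 on the log2 scale, a factor of 1.21, beside 0.0025 for all tested genes. Of the 77, 41 were above a factor of 1.2 and 35 lay within it in either direction. Unadjusted p was under 0.05 for 23 members with a higher level (29.9%) and for 1 with a lower level, where the same held for 9.49% and 10.9% of all tested genes. The count of 23 was 6 without vehicle replicate 2, 10 without vehicle replicate 3 and without estrogen replicate 2, 11 without estrogen replicate 3, 34 without estrogen replicate 1 and 5 with library totals and no scaling factor. The fit without vehicle replicate 1 is not in this list, and its count lay between 6 and 34. Over all genes, 3185 (20.4%) had an unadjusted p under 0.05 in either direction in the main fit, beside 24 members (31.2%). In the other listed fits, in the order given, the genes numbered 1459, 2550, 3162, 2358, 3239 and 3570, with 2693 without vehicle replicate 1. These gene counts cover both directions and the member counts only higher levels, so they are not like shares. With library totals, members had such a p in either direction less often than all genes. The lowest adjusted p of a member was 0.207 by edgeR. DESeq2 on the same genes called 3 members higher, Mrps22, Mrpl2 and Mrpl12, and none lower, where it called 2.48% of all tested genes higher and 3% lower.

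The range within each group was about as wide as the difference between the group means. The summed level of all members was 3044, 2537 and 2577 CPM in vehicle replicates 1, 2 and 3, and 2920, 3499 and 3434 CPM in estrogen replicates 1, 2 and 3. Vehicle replicate 1 thus lay above estrogen replicate 1, and the groups overlapped. The group means were 2720 ± 282 CPM for vehicle and 3284 ± 317 CPM for estrogen (SD, n = 3 each), a ratio of 1.21. The 2 libraries that met in the middle did so gene by gene, since vehicle replicate 1 was the highest vehicle library in 67 members, estrogen replicate 1 the lowest estrogen library in 71, and the former read above the latter in 49. All 3 estrogen libraries read above all 3 vehicle libraries in 26 members (33.8%, against 12.8% of all tested genes) and below them in 1 (against 14.7%). Without vehicle replicate 1 the first count was 63 members (81.8%, against 19.2% of genes), and without estrogen replicate 1 it was 53 (68.8%, against 19.7%). Without vehicle replicates 2 and 3 it was 26 (33.8%, against 15.2%) and 27 (35.1%, against 18.7%). Without estrogen replicates 2 and 3 it was 26 (33.8%, against 20.2%) and 27 (35.1%, against 15.7%). With fewer libraries, groups stand apart more easily. The members' median log2 fold change was between 0.22 and 0.35 when each library was left out in turn, lowest without estrogen replicate 2.

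**Figure D1:**
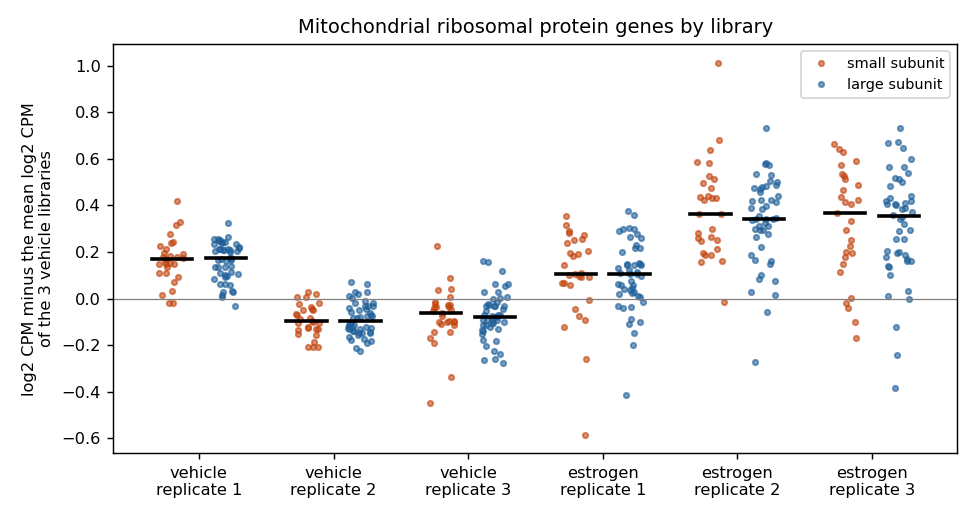
Level of each tested member in each library, as log2 CPM minus its mean log2 CPM over the 3 vehicle libraries. Each point is a gene, small subunit in orange and large subunit in blue, and black bars are medians, which lie at 0.10 and 0.11 in estrogen replicate 1, near 0.17 in vehicle replicate 1 and between 0.34 and 0.37 in estrogen replicates 2 and 3.

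Marker RNAs of other cell types also differed between these libraries. Adipocyte markers were abundant in every library, at summed levels of 20209 to 29532 CPM in vehicle and 29544 to 51319 CPM in estrogen, led by Cfd and Fabp4. Of these 10 markers, 8 had positive log2 fold changes and 2, Lep (-0.73) and Pparg (-0.08), negative ones. By edgeR 1 was higher at an unadjusted p under 0.05 (10%, against 9.49% of all tested genes). The 8 progenitor and fibroblast markers summed to 11938 to 33689 CPM in vehicle and 1221 to 8330 CPM in estrogen, led by the collagens Col3a1 and Col1a1, and the 8 macrophage markers to 2114 to 2960 and 496 to 1635 CPM, led by Lyz2 and Csf1r. All 8 genes of both lists had negative log2 fold changes. Unadjusted p was under 0.05 for 7 (87.5%) and 5 (62.5%) of them, beside 10.9% of all tested genes with a lower level. The adjusted p was under 0.05 for 0 of them by edgeR. The 8 skeletal muscle markers, led by Myh4 and Acta1, summed to 8040 CPM in estrogen replicate 1 and to between 3.05 and 70.8 CPM in the other 5 libraries. B cell markers, led by Cd22 and Cd79a, summed to 185 and 120 CPM in estrogen replicates 1 and 3 and to between 4.12 and 7.12 CPM elsewhere. T cell markers, led by Lck and Cd8a, summed to 79.7 and 14.3 CPM in the same 2 libraries and to between 4.01 and 6.59 CPM elsewhere. Neutrophil markers, led by Mmp9 and Csf3r, summed to 209 CPM in vehicle replicate 1 and to between 42.8 and 61.6 CPM in the other 5. Endothelial markers, led by Cdh5 and Pecam1, overlapped (563 to 838 and 703 to 978 CPM), and mammary epithelium markers, led by Cdh1 and Elf5, reached at most 3.25 CPM in any library, with Krt14 and Krt5 (2 of the 8) at 0 throughout. Without estrogen replicate 1, the library with the muscle transcripts, 73 of 77 members had positive log2 fold changes, with a median of 0.35. Without estrogen replicate 3, 69 of 77 did. The part of the other differences in the members' levels was not tested. In such bulk RNA, fewer or more cells of a type and a change of RNA per cell cannot be told apart.

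In the small subunit, 27 of 29 members had positive log2 fold changes, with a median of 0.29. At an unadjusted p under 0.05, 9 were higher (31.0%, beside 9.49% of all tested genes) and 0 lower. Mrps22, a protein specific to mitochondrial ribosomes whose mutations cause a human disease of the respiratory chain, read 19.8, 19.8 and 20.7 CPM in vehicle and 24.98, 30.1 and 29.1 CPM in estrogen. The 3 vehicle libraries were nearly alike and all estrogen libraries lay above them. Its log2 fold change was 0.48 ± 0.12 (SE), with adjusted p = 0.207 by edgeR and 0.0432 by DESeq2. Mrps34, also specific to mitochondrial ribosomes, read 32.8, 30.9 and 28.8 CPM in vehicle and 37.7, 42.8 and 41.3 CPM in estrogen, again without overlap (0.40 ± 0.11, adjusted p = 0.207 by edgeR). It lies wholly inside Mapk8ip3, a gene of the opposite strand with 9025 counts, and the sources used here do not say whether strand was used in counting. Mrps34 also shares 1003 bases with Nme3, a coding gene of the same strand with 0 counts, where strand cannot separate reads.

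In Mrps31 the libraries of each group lay close together. Its levels were 21.9, 20.4 and 22.0 CPM in vehicle and 26.0, 27.5 and 27.0 CPM in estrogen, a log2 fold change of 0.33 ± 0.10. Mrps23 read 48.5, 41.1 and 40.2 CPM in vehicle and 52.0, 58.1 and 59.6 CPM in estrogen (0.39 ± 0.12). In Mrps35 the groups just separated, since vehicle replicate 1 at 34.7 CPM lay below estrogen replicate 1 at 34.9 CPM, with 28.3 and 29.7 CPM in the other vehicle and 44.3 and 47.6 CPM in the other estrogen libraries (0.45 ± 0.15). Mrps15, homologous to a bacterial protein of the small subunit's platform, showed the same near meeting, at 55.9 CPM in vehicle replicate 1 and 56.4 CPM in estrogen replicate 1 (0.41 ± 0.15). Mrps9 also separated (0.28 ± 0.11), whereas Mrps27, a pentatricopeptide repeat protein, and Mrps7, homologous to the bacterial protein that starts assembly of the small subunit's head, overlapped. Mrps27 read 29.7, 24.2 and 24.3 CPM against 33.2, 38.9 and 29.4 CPM (0.38 ± 0.15). Mrps7 read 72.1, 56.5 and 57.4 CPM against 65.8, 87.0 and 97.5 CPM (0.43 ± 0.18). For these 7 genes the adjusted p was between 0.207 and 0.242 by edgeR.

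The 3 mammalian homologs of bacterial protein S18, Mrps18a, Mrps18b and Mrps18c, overlapped between groups. Mrps18a read 40.3, 29.6 and 33.5 CPM in vehicle and 35.8, 46.1 and 53.3 CPM in estrogen, a log2 fold change of 0.39 ± 0.18. Mrps18b had 0.36 ± 0.18 and Mrps18c 0.14 ± 0.20, with adjusted p of 0.272, 0.292 and 0.711 for the 3 genes by edgeR. Mrps18a and Mrps30 carry small subunit names, but structures place them in the large subunit. Mrps30 had a log2 fold change of 0.33 ± 0.15, with groups that did not overlap (vehicle at most 28.7 CPM, estrogen at least 29.5 CPM). Mrps12, homologous to the bacterial decoding-centre protein, read 29.1, 23.9 and 24.4 CPM in vehicle and 27.6, 29.3 and 25.8 CPM in estrogen (0.09 ± 0.12, adjusted p = 0.679 by edgeR).

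Mrps36, now known as a component of the 2-oxoglutarate dehydrogenase complex and not of the ribosome, varied more than any other member. It read 27.6, 21.1 and 15.1 CPM in vehicle and 24.7, 41.7 and 19.3 CPM in estrogen, a coefficient of variation of 29.4% and 41.0% beside medians of 11.3% and 12.1% over the tested members. Its highest library, estrogen replicate 2, also had the highest sum of the 8 brown and beige fat markers, led by Ucp1 and Cox8b, at 3120 CPM. Those sums were 1650, 1140 and 726 CPM in vehicle and 1353 and 391 CPM in estrogen replicates 1 and 3. The log2 fold change of Mrps36 was 0.42 ± 0.33 (adjusted p = 0.475 by edgeR), and 0.048 without estrogen replicate 2.

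In the large subunit, 43 of 48 tested members had positive log2 fold changes, with a median of 0.26. Unadjusted p was under 0.05 for 14 of them with a higher level (29.2%) and for 1 with a lower level. The same held for 9.49% and 10.9% of all tested genes. Mrpl12, a protein of the stalk that recruits translation factors and also a partner of the mitochondrial RNA polymerase, had the largest log2 fold change of all members. It read 59.5, 43.6 and 51.0 CPM in vehicle and 66.2, 84.8 and 84.8 CPM in estrogen, so every estrogen library lay above every vehicle library. The log2 fold change was 0.61 ± 0.16, a factor of 1.53, with adjusted p = 0.207 by edgeR and 0.0380 by DESeq2. Mrpl2, homologous to a bacterial protein next to the peptidyl transferase centre, read 47.2, 40.6 and 44.0 CPM in vehicle and 54.0, 63.3 and 64.8 CPM in estrogen. Its groups also did not overlap (0.47 ± 0.12, adjusted p = 0.207 by edgeR and 0.0433 by DESeq2).

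Mrpl50 and Mrpl42, both without a bacterial counterpart, resembled Mrpl12 in that estrogen replicate 1 was the lowest of its group and vehicle replicate 1 the highest, without overlap. Mrpl50 read 50, 42.4 and 38.4 CPM in vehicle and 53.5, 65.0 and 69.0 CPM in estrogen (0.52 ± 0.15). Mrpl42 read 61.9, 52.1 and 51.1 CPM in vehicle and 70.4, 73.5 and 78.5 CPM in estrogen (0.43 ± 0.12). Mrpl49 read 28.9, 27.0 and 33 CPM in vehicle and 35.8, 39.4 and 46.9 CPM in estrogen (0.46 ± 0.14). Mrpl39 (0.37 ± 0.11), Mrpl9 (0.43 ± 0.15) and Mrpl45 (0.41 ± 0.14), which anchors the ribosome at the inner membrane, separated too. In Mrpl9 the gap was narrow, with 46.4 CPM in vehicle replicate 1 and 47.0 CPM in estrogen replicate 1. The adjusted p of these 6 genes was between 0.207 and 0.210 by edgeR. Mrpl58, a peptidyl-tRNA hydrolase that rescues stalled ribosomes and was formerly named Ict1, overlapped between groups (32.9, 29.6 and 23.5 against 28.1, 36.3 and 32.0 CPM, 0.17 ± 0.16, adjusted p = 0.574 by edgeR).

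**Figure D2:**
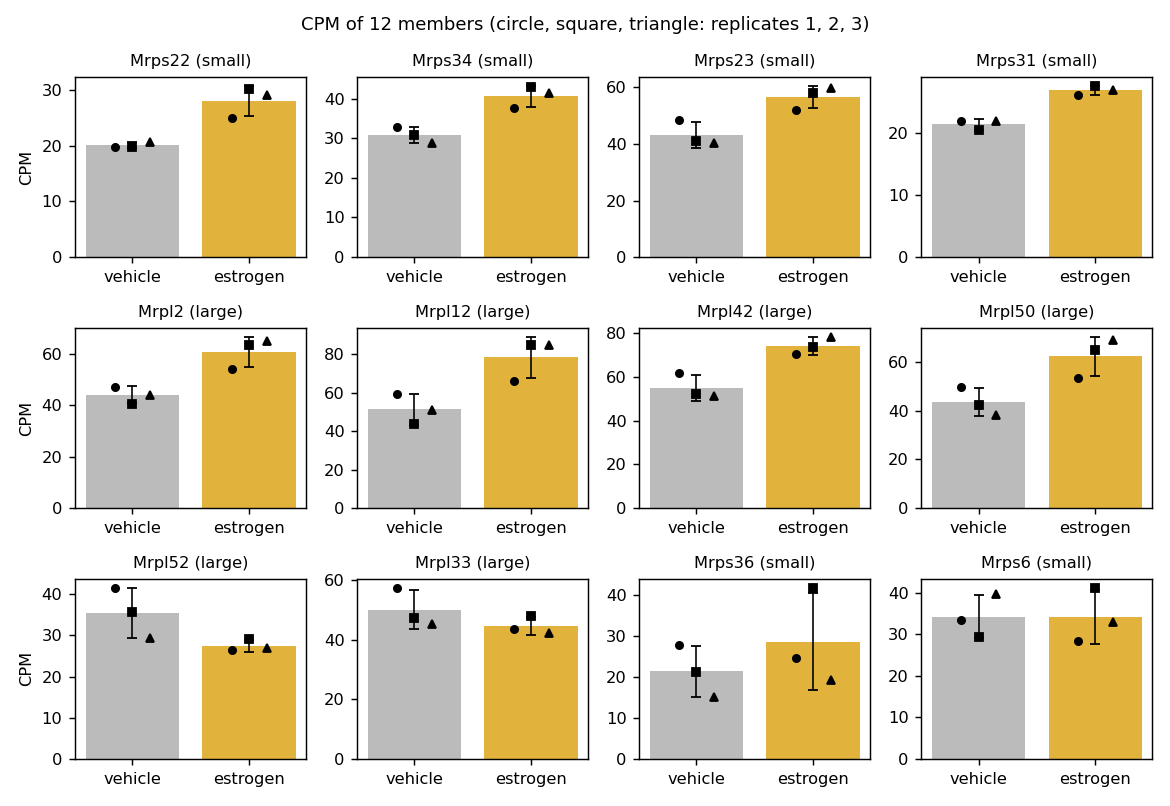
CPM in each library for Mrps22, Mrps34, Mrps23, Mrps31, Mrpl2, Mrpl12, Mrpl42 and Mrpl50, the 4 of smallest unadjusted p in each subunit, and for Mrpl52, Mrpl33, Mrps36 and Mrps6. Bars are group means, error bars SD (n = 3), and circles, squares and triangles are replicates 1, 2 and 3. Groups are apart in the upper and middle rows, apart in the opposite direction in Mrpl52, and overlap in Mrpl33, Mrps36 and Mrps6.

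Both subunits differed between the groups by nearly the same amount. The median log2 fold change of the small subunit exceeded that of the large subunit by 0.026. The difference was 0.0022 with Mrps18a and Mrps30 counted as large subunit and Mrps36 left out, and -0.014 without vehicle replicate 1. Small subunit genes supplied 34.7% of the members' summed CPM in each of the 3 vehicle libraries and 34.7%, 35.3% and 35.1% in the 3 estrogen libraries. Per kb of gene length, the mean log2 level of the small subunit minus that of the large subunit was between -0.33 and -0.31 in vehicle and between -0.32 and -0.27 in estrogen. The summed CPM of either subunit ranged more widely over the 6 libraries, from 880 to 1234 (small) and from 1657 to 2266 (large). Mrps11 and Mrpl46, the divergent pair, had log2 fold changes of 0.07 ± 0.15 and 0.31 ± 0.17 (adjusted p = 0.807 and 0.329 by edgeR).

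**Figure D3:**
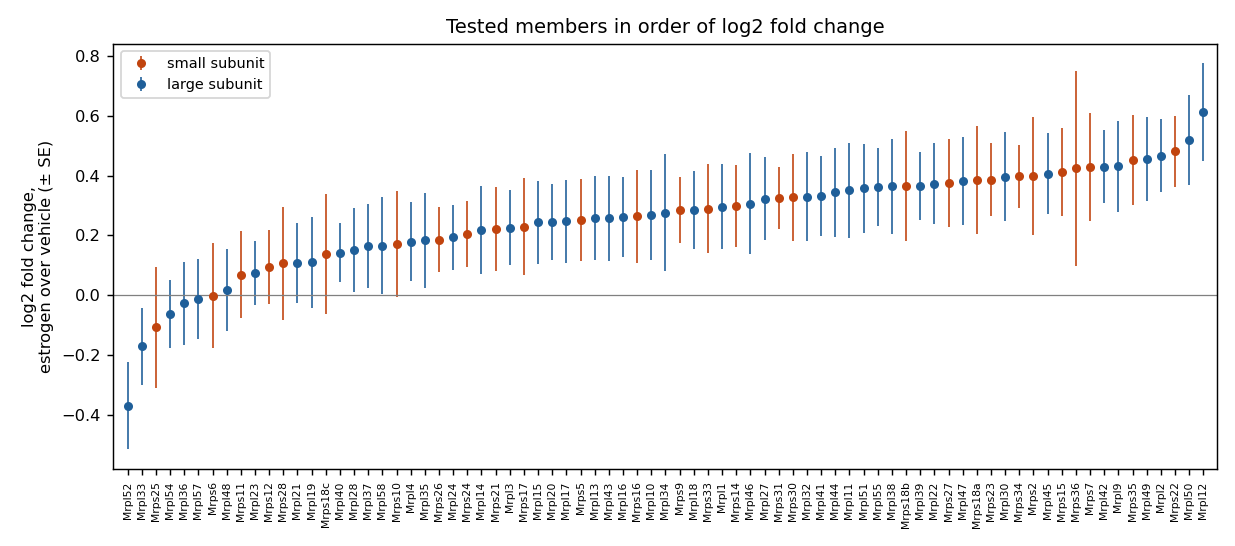
Log2 fold change, estrogen over vehicle, of the 77 tested members in ascending order, small subunit in orange and large subunit in blue, with bars of ± SE. The values run from -0.37 in Mrpl52 to 0.61 in Mrpl12, and members of both subunits are spread along the whole order.

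The few members with lower fitted levels were mostly genes of very small proteins. Mrpl52 was the only member with an unadjusted p under 0.05 and a lower level. It read 41.6, 35.7 and 29.3 CPM in vehicle and 26.4, 29.1 and 27.0 CPM in estrogen. The groups touched without overlapping, since the lowest vehicle and the highest estrogen library were 29.3 and 29.1 CPM. Its log2 fold change was -0.37 ± 0.15, with adjusted p = 0.226 by edgeR. Leaving out each library in turn gave values between -0.49 and -0.24.

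The other 6 negative values were smaller and their groups overlapped. Mrpl33, at 65 residues the shortest member, had -0.17 ± 0.13, from 57.5, 47.4 and 45.4 CPM in vehicle and 43.4, 47.9 and 42.1 CPM in estrogen. Mrps25 had -0.11 ± 0.20, with estrogen replicate 1 at 16.7 CPM and the other estrogen libraries at 28.6 and 24.8 CPM, and its log2 fold change was 0.076 without that library. Mrpl54 (-0.06 ± 0.11), Mrpl36 (-0.027 ± 0.14), Mrpl57 (-0.014 ± 0.13) and Mrps6 (-0.0012 ± 0.17) lay within their SE of 0. The adjusted p of these 6 genes was at least 0.468 by edgeR. Mrpl36, Mrpl57 and Mrps6 turned positive with upper quartile scaling (0.015, 0.029 and 0.038), and Mrpl36 and Mrpl57 also did so without vehicle replicate 1 (0.12 and 0.11).

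By protein size, 6 of the 22 tested members under 150 residues were negative, 1 of 40 with 150 to under 300 residues, and 0 of 15 with 300 residues or more. Their median log2 fold changes were 0.24, 0.26 and 0.34, and the groups stood apart in the higher direction in 4, 12 and 10 of them. Among all tested coding genes of these 3 sizes, 411 of 882, 1216 of 2695 and 5248 of 9991 were negative, and the groups stood apart in the higher direction in 113, 433 and 1246. Across the 77 members Spearman's rho between log2 fold change and coding length was 0.29 (0.41 over 29 small and 0.18 over 48 large subunit members), beside -0.11 over 13568 tested coding genes. Genes are not replicates and all come from the same 6 libraries, so these values are a description. The rho over members was -0.11 with the GC content of the transcript and 0.22 with mean CPM.

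**Figure D4:**
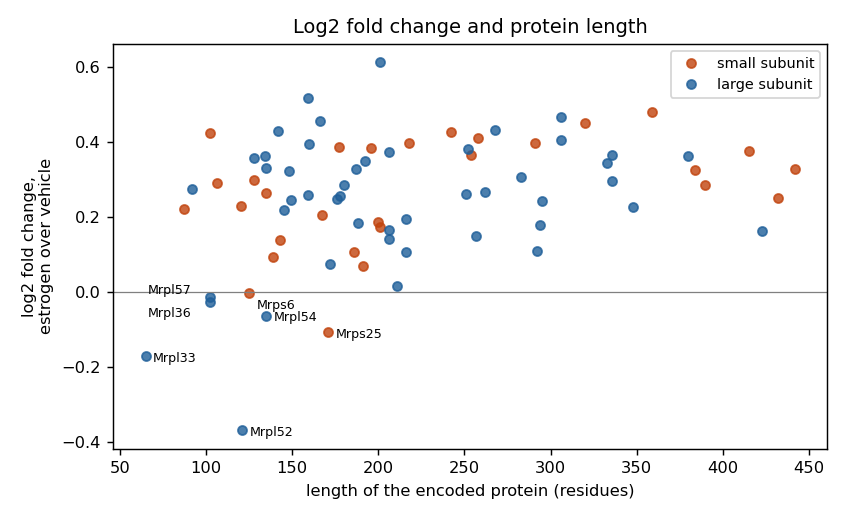
Log2 fold change, estrogen over vehicle, of the 77 tested members against the length of the encoded protein in residues, small subunit in orange and large subunit in blue. The 7 members below 0 are named, and 6 of them encode fewer than 150 residues.

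Members differed among themselves far more in level than between the groups. Per kb of the deposited gene length, which joins all exons of a gene, mean levels over the 6 libraries ran from 3.23 CPM per kb in Mrpl19 to 81.9 in Mrpl34, a ratio of 25.4. Mrpl2 (44.7) and Mrpl27 (43.5) came next in the large subunit, and Mrps21 (76.1), Mrps7 (35.1) and Mrps15 (33.9) were highest in the small subunit. The lowest of the small subunit were Mrps25 (3.69), Mrps35 (4.24) and Mrps30 (4.38), and Mrpl47 (4.36) and Mrpl48 (4.50) followed Mrpl19 in the large subunit. The medians were 13.1 CPM per kb for the small and 17.6 for the large subunit. Per kb of a single GENCODE transcript the order changed (Spearman's rho 0.72 across the 77 members), the ratio was 46.1, and Mrpl30 was highest at 162. A level per kb therefore depends on which exons a gene model counts.

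Of the members named here as highest or lowest per kb, Mrps25 alone had a negative log2 fold change. Mrpl34 and Mrps21, the most abundant per kb, overlapped between groups (0.28 ± 0.19 and 0.22 ± 0.14, adjusted p = 0.437 and 0.391 by edgeR), and so did Mrpl19 (0.11 ± 0.15) and Mrpl48 (0.02 ± 0.14). Mrpl27 and Mrpl47 stood apart, at 0.32 ± 0.14 and 0.38 ± 0.15 (adjusted p = 0.245 and 0.221 by edgeR).

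Raw counts of the 77 tested members were between 268 and 1935 in each library. Mrpl53 was the 1 member not tested, with 0 counts in all 6 libraries, and 3 counts in a library correspond to 0.130 to 0.209 CPM. It lies wholly within Gm42688, a coding gene of the same strand with 107 counts (chr6:83109040-83109939 within chr6:83101617-83109939), and reads that fit both cannot be told apart. Another annotated gene overlaps 41 of the 78 members, and without them the remaining 37 tested members had 34 positive values.

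Proteins of the same ribosome that carry other symbols were read from the same test. All 5 with counts (Ptcd3, Aurkaip1, Chchd1, Gadd45gip1 and Dap3) had positive log2 fold changes, with a median of 0.16. With library totals and no scaling factor 2 of the 5 were positive, with a median of -0.014. Ptcd3, a pentatricopeptide repeat protein of the small subunit, read 58.2, 48.5 and 43.0 CPM in vehicle and 61.7, 72.5 and 71.4 CPM in estrogen (0.46 ± 0.15, adjusted p = 0.207 by edgeR). Aurkaip1 (0.36 ± 0.13) and Chchd1 (0.16 ± 0.10), both of the small subunit, stood apart too. Dap3, a GTP-binding small subunit protein, overlapped (0.06 ± 0.12), as did Gadd45gip1 of the large subunit (0.08 ± 0.12).

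Factors that build and serve the ribosome had mostly positive values as well, and 0 of them passed the adjusted threshold by edgeR. Among 26 assembly factors 25 were positive, where the median was 0.20 on the log2 scale. At an unadjusted p under 0.05, 8 were higher (30.8%, beside 9.49% of all tested genes). With library totals and no scaling factor 17 of the 26 were positive, with a median of 0.019. They were led by the ribosomal RNA methyltransferase Mrm3 (0.55 ± 0.17), Ngrn (0.39 ± 0.13), the ribosomal RNA chaperone Eral1 (0.42 ± 0.15) and the pseudouridine synthase Trub2 (0.33 ± 0.12). Among 15 translation factors 12 were positive, with a median of 0.23 and 2 at an unadjusted p under 0.05, the elongation factors Gfm2 (0.41 ± 0.12) and Gfm1 (0.48 ± 0.16). These 2 are 13.3% of the list, beside 9.49% of all tested genes, and with library totals 10 of the 15 were positive, with a median of 0.065. The release factor Mtrf1 (0.48 ± 0.21) and the messenger RNA stabiliser Lrpprc (0.39 ± 0.18) came next. Among 17 mitochondrial tRNA synthetases 16 were positive, with a median of 0.30. At an unadjusted p under 0.05, 5 were higher (29.4%, beside the same 9.49%), led by Iars2 (0.34 ± 0.13), Rars2 (0.36 ± 0.14), Lars2 (0.68 ± 0.26) and Vars2 (0.38 ± 0.15). With library totals 12 of the 17 were positive, with a median of 0.14. In Lars2, estrogen replicate 1 at 205 CPM lay far from the other estrogen libraries at 116 and 114 CPM.

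Genes that govern mitochondrial transcription were mixed, with 9 of 15 positive and a median of 0.17 (7 of 15 and -0.016 with library totals and no scaling factor). Ppargc1b, a coactivator of genes for mitochondria, read 11.6, 11.6 and 13.8 CPM in vehicle and 22.4, 30.2 and 21.7 CPM in estrogen, without overlap. Its log2 fold change was 1.005 ± 0.17, with adjusted p = 0.207 by edgeR and 0.00173 by DESeq2. Pprc1, a related coactivator, had the opposite direction, at 30.2, 37.1 and 31.8 CPM in vehicle and 21.1, 25.2 and 19.4 CPM in estrogen (-0.59 ± 0.14, adjusted p = 0.207 by edgeR and 0.0432 by DESeq2). Tfb2m, which opens mitochondrial promoters (0.49 ± 0.14), and the elongation factor Tefm (0.48 ± 0.16) were higher in all 3 estrogen libraries than in any vehicle library.

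The messenger RNAs that this ribosome translates had a larger median difference than its protein genes. All 13 had positive log2 fold changes, with a median of 0.74. At an unadjusted p under 0.05, 9 were higher (69.2%, beside 9.49% of all tested genes). By edgeR 0 passed the adjusted threshold. DESeq2 called 7 higher, where it called 2.48% of all tested genes higher. Their summed level was 82204, 60074 and 55354 CPM in vehicle and 89204, 104192 and 132383 CPM in estrogen, so the groups did not overlap, with a ratio of 1.65. Divided by the members' summed CPM, this gave 27.0, 23.7 and 21.5 in vehicle and 30.5, 29.8 and 38.6 in estrogen. Gene by gene, 8 of the 13 stood apart in the higher direction (61.5%, beside 12.8% of all tested genes) and 5 overlapped. The sum was led by mt-Co1, with means of 26639 CPM in vehicle and 44655 CPM in estrogen, whereas mt-Atp8 had 1.16 and 2.82 CPM. The 2 ribosomal RNAs of the particle did not follow the same order. mt-Rnr1 and mt-Rnr2 summed to 2047, 1225 and 703 CPM in vehicle and 1201, 2851 and 1243 CPM in estrogen, with log2 fold changes of 0.47 ± 0.47 and 0.37 ± 0.48 (adjusted p = 0.590 and 0.669 by edgeR). Without estrogen replicate 2 both were negative, with a median of -0.11. The sources used here do not say whether ribosomal RNA was removed during library preparation. Their highest library in each group, vehicle replicate 1 and estrogen replicate 2, was also that of the brown and beige markers.

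For complex I, whose nuclear subunits join those made by the mitochondrial ribosome, all 36 listed nuclear genes had positive values, with a median of 0.42. They were listed by Nduf symbol alone, and their place in the complex was not checked. At an unadjusted p under 0.05, 24 were higher (66.7%, beside 9.49% of all tested genes). With library totals and no scaling factor 35 of 36 were positive, with a median of 0.25. Ndufv1 read 247, 211 and 207 CPM in vehicle and 301, 429 and 384 CPM in estrogen (0.74 ± 0.17, adjusted p = 0.207 by edgeR and 0.00882 by DESeq2). The proteins of the cytosolic ribosome had the other sign. Of 78 tested genes 6 were positive, with a median of -0.20 (between 1 and 8 positive under the other scalings), and all estrogen libraries read below all vehicle libraries in 42 of them, where 14.7% of all tested genes did so. Their summed level was 19809, 20914 and 18266 CPM in vehicle and 17233, 16699 and 16920 CPM in estrogen, without overlap. Unadjusted p was under 0.05 for 14 of the 78 (17.9%, beside 20.4% of all tested genes), and 13 of these were lower. Many have processed pseudogenes, and the sources used here do not say how reads with several matches were counted. Among members such copies were sparse, with 4 to 21 counts in a library for the tested pseudogenes Mrpl23-ps1 and Mrpl48-ps.

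**Figure D5:**
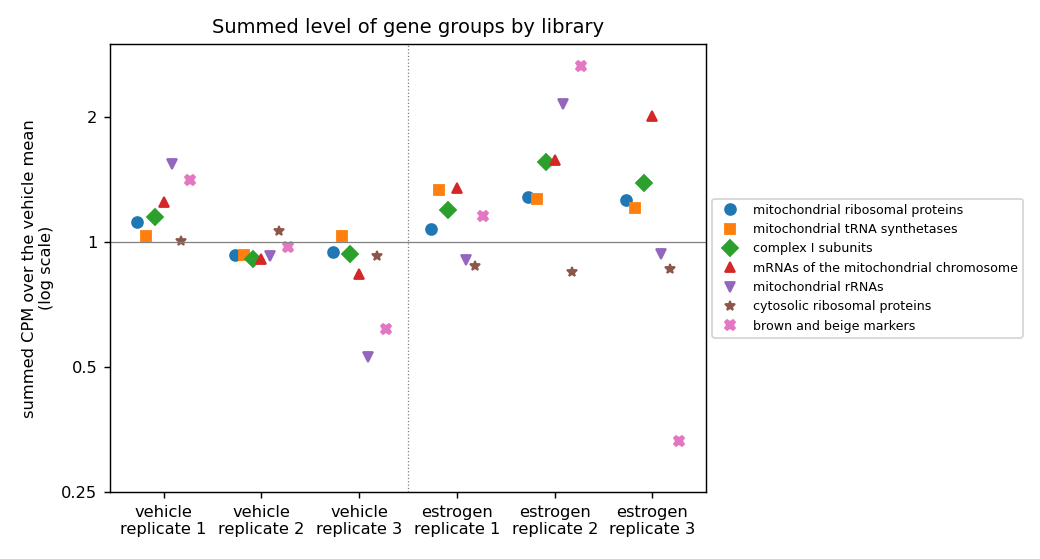
Summed CPM of each gene group in each library over its vehicle mean, on a log scale, with a marker shape and colour for each group. Mitochondrial ribosomal proteins, tRNA synthetases, complex I subunits and mitochondrial messenger RNAs are above 1 in all estrogen libraries, the cytosolic ribosomal proteins are below 1 in all of them, and the brown and beige markers and ribosomal RNAs are spread widest.

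The scaling set the zero of these comparisons. With library totals and no scaling factor, the median log2 fold change of all tested genes was -0.17 and that of the members 0.11, so the members stood 0.275 above all genes, beside 0.274 with TMM factors. Under those totals 57 of 77 members were positive, beside 70 with TMM factors. Of the 37 members chosen by the naming rule given below, Mrpl19, Mrpl48, Mrpl58, Mrps12 and Mrps18c turned negative. The members' share of all counts, which needs no factor, was 0.314%, 0.264% and 0.286% in vehicle and 0.292%, 0.333% and 0.299% in estrogen.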

How the data were processed

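Total RNA of 6 libraries, 3 a group, was sequenced, and the sample titles gave the groups and replicate numbers. The authors deposited raw counts of reads per gene, with gene lengths, made with HISAT2 and featureCounts on mm10, per the submitters' processing notes. The sources used here do not state versions, strand setting or the handling of reads with several matches. Total counts were 16046601 to 20736771 a library. All 78 members matched GENCODE M21 by identifier, 73 with the same start and end.

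Counts were scaled with TMM factors (0.873 to 1.11), filtered with the defaults of filterByExpr (15591 genes) and compared with edgeR 4.0.16's quasi-likelihood test in R 4.3.3, without a replicate block, adjusted by Benjamini and Hochberg's method over all of them. Alternatives were DESeq2 1.42.0, voom of limma 3.58.1, other scalings and filters, leaving out each library and a replicate block. Fits were tested on simulated data. Libraries of 1 group differed beyond counting noise (chi-square per degree of freedom 41.7 to 88.6). With 3 against 3 libraries the smallest two-sided exact permutation p for a single value is 0.1, so sums carry none.

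Members, gene lists and the rule for named genes were chosen with earlier results of these data known. Named were the 8 members of smallest p and the 3 highest and 3 lowest per kb in each subunit, all negative or untested members, a short list picked by role, and the 4 companion genes of smallest p in each list. Mrps11, Mrpl46, Mrpl30, Ndufv1 and the motif matches were named after their values were seen.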

Additional observations from a re-analysis of the deposited data

How the results depend on the processing

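Across the alternatives run, 653 of 710 recomputed values were classed as unchanged. For single genes this meant the same direction and side of the threshold. Only DESeq2 put any of the 37 named members past the threshold, so in the other fits the class rested on direction alone. Mrpl12 was classed as unchanged without vehicle replicate 2, where its adjusted p by edgeR was 0.520 instead of 0.207. For counts of genes it meant a limited ratio to the main value, and for medians a shift smaller than the SD between replicates. DESeq2 called 386 genes higher and 468 lower and 3 members higher, where edgeR called 0. With library totals and no scaling factor, chosen after seeing the data, the median log2 fold change was 0.11 for all members, 0.12 for the small and 0.093 for the large subunit. At an unadjusted p under 0.05 there were then 5 members higher and 2 lower of 77, where 3570 of 15591 tested genes were in either direction. That was a smaller share of the members than of all genes, the reverse of the main fit (31.2% against 20.4%). The count of lower members was 0 with DESeq2, limma-voom and upper quartile factors. Without 1 library in turn, members at an unadjusted p under 0.05 numbered 6 (without vehicle replicate 2) to 34 (without estrogen replicate 1) higher and 0 to 1 lower. Genes at an unadjusted p under 0.05 numbered 1459 (without vehicle replicate 2) to 3239 (without estrogen replicate 1), and those past the adjusted threshold and higher 0 to 13 (without estrogen replicate 2), with fewer samples in each such fit. The small minus large difference was 0.0022 with subunits assigned by structure and ran from -0.014 to 0.053 without 1 library. Among the 37 members chosen by the naming rule, single genes turned sign as follows, and the cause was not tested. With library totals the values were -0.057 for Mrpl19, -0.15 for Mrpl48, -0.00091 for Mrpl58, -0.070 for Mrps12 and -0.043 for Mrps18c. With upper quartile factors they were 0.015 for Mrpl36, 0.029 for Mrpl57 and 0.038 for Mrps6, and Mrps6 had 0.0094 with DESeq2 and 0.0095 with its size factors. With no low-count filter Mrpl48 had -0.0027. The ranges without 1 library were -0.0021 to 0.22 for Mrpl19, -0.11 to 0.12 for Mrpl36, -0.071 to 0.15 for Mrpl48, -0.080 to 0.11 for Mrpl57, -0.062 to 0.27 for Mrps18c, -0.28 to 0.076 for Mrps25 and -0.16 to 0.12 for Mrps6. The labels state no pairing of the samples. Deviations of same-numbered libraries correlated at -0.13, 0.20 and 0.31, and those of other combinations at -0.38 to 0.15. Not every library correlated best with its own number. The deposited columns are numbered otherwise in both groups, and by those numbers only the first (-0.13) and the last (0.31) of the same-numbered pairs match. With 3 libraries a group, these correlations cannot decide whether replicate numbers pair the samples. With the replicate block 17 members were higher and 1 lower at an unadjusted p under 0.05, where 3305 of 15591 genes were in either direction, and 0 passed the adjusted threshold. Tested members had at least 268 counts in a library.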
